A study of Homo sapiens with 9 samples.

Results

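The genes described here encode 10 enzymes of amino acid synthesis: ASNS, PHGDH, PSAT1, PSPH, SHMT2, MTHFD2, ALDH1L2, PYCR1, CTH and CBS. They were taken by name from the enzymes of serine, asparagine, proline and cysteine synthesis that are known targets of the transcription factor ATF4, and all 10 were among the 18239 genes measured. Each gene was read from 1 probe set, the one with the highest mean signal among those annotated to that gene alone, and the remaining probe sets served as a check.

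Expression was measured on Affymetrix arrays in K562 cells, an established line from a human leukaemia that makes globins. Each of the 3 groups held 3 arrays and received 1 form of calreticulin (CALR), a chaperone of the endoplasmic reticulum: the wild-type form (WT CALR), the deletion mutant Del52 (DEL52 CALR) or the insertion mutant Ins5 (INS5 CALR). By the labels all groups had medium with 10% FBS at seeding and 20% FBS for the transduction. They went through 4 cycles of retroviral infection spaced 12 h apart and a further 36 h of culture. Immunomagnetic selection for the surface marker NGFR followed, with purity above 90% when checked 48 h later. Every group therefore carries an added CALR gene in 1 cell line, no group is untransduced, and the labels describe no step that removes the cells' own CALR. They do not state whether the 3 samples of a group came from separate transductions, so p-values measure the spread between these samples, which may be technical. The series title names the unfolded protein and oxidative stress responses as the question.

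ATF4 is translated preferentially when kinases phosphorylate the initiation factor eIF2alpha, as happens in amino acid shortage and in endoplasmic reticulum stress. It then activates genes for amino acid supply. PHGDH, PSAT1 and PSPH convert a glycolytic intermediate to serine, mitochondrial folate enzymes take carbon from serine, ASNS makes asparagine from aspartate, PYCR1 completes proline, and CBS followed by CTH passes the sulfur of homocysteine to cysteine.

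Values are the authors' RMA values on the log2 scale, so a difference of 1 is a factor of 2. The array medians lay between 3.73 and 3.76. K562 identity was read from erythroid markers: the embryonic and fetal globins HBG1 (11.78 to 12.06 over the arrays), HBE1 (10.91 to 11.30) and HBZ (10.34 to 10.85), the transferrin receptor TFRC (10.38 to 11.10), the haem enzyme ALAS2 (8.41 to 9.52) and the factors GATA1 (7.96 to 8.53) and KLF1 (7.83 to 8.39). EPOR (mean 4.10) and SLC4A1 (mean 4.22) were dim. Of 11 markers of other cells, 9 had means between 2.16 and 3.86, below the second-brightest of 23 antigenomic control probe sets (4.18), whereas LYZ (9.65) and EPCAM (8.54) were bright. The first principal component of the arrays accounted for 70.6% of the gene-wise variance, and the next for 10.0%. Wild-type replicates 2 and 3 stood at the ends of the first (scores 0.57 and -0.57), and Del52 replicate 1 stood apart on the second (score -0.79).

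The DNA just before the start sites is shown for 4 of the genes because a motif of the ATF4 family lies there in ASNS, because PHGDH and CBS had the array profiles nearest to ASNS, and because CTH varied most. The sequences are the 100 bases before the annotated start on GRCh38.p14, written 5′ to 3′ along the gene and taken from RefSeq. They lie at chr7:97872409-97872508 on the minus strand for ASNS, chr1:119711834-119711933 on the plus strand for PHGDH, chr1:70411168-70411267 on the plus strand for CTH, and chr21:43076378-43076477 on the minus strand for CBS. Capitals mark matches to a searched motif.
ASNS: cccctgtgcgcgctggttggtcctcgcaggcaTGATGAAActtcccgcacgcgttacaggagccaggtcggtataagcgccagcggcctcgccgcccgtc
PHGDH: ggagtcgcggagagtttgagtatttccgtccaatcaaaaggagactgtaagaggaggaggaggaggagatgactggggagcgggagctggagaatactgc
CTH: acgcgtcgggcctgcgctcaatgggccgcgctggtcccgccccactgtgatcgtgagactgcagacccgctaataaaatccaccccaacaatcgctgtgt
CBS: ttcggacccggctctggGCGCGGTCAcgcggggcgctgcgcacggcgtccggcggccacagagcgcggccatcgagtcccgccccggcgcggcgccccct

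Windows of 300 bases, from 250 before to 50 after the start, were held for 6 of the 10 genes (ASNS, PHGDH, PSAT1, MTHFD2, CTH and CBS) and were searched on both strands. TGATGNAA, the core of the C/EBP-ATF response element, was found in ASNS alone among the 6, as TGATGAAA with its first base at -68, counting the base before the start as -1. It occurred in 3.62% of the 35116 windows of all genes. TGACNNNGC, the core of the antioxidant response element, matched in CBS (first base at -83) and, past the start, in MTHFD2 (first base at 7), against 13.3% of all windows. The cyclic AMP response element TGACGTCA matched in 0 of the 6 genes and in 1.85% of windows. A match is a description of the letters, and its absence says only that these letters are not in this window. PSPH, SHMT2, ALDH1L2 and PYCR1 were not searched.

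ASNS, the asparagine synthetase, gave the reference pattern over the arrays. Its values were 10.89, 10.44 and 11.04 in wild type, 10.13, 10.87 and 10.61 in Del52, and 11.18, 10.88 and 10.55 in Ins5 (replicates 1 to 3 in each). The lowest array was Del52 replicate 1 and the highest Ins5 replicate 1, and the 3 groups overlapped. The other 3 probe sets of ASNS correlated with it between 0.998 and 0.999.

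**Figure D1:**
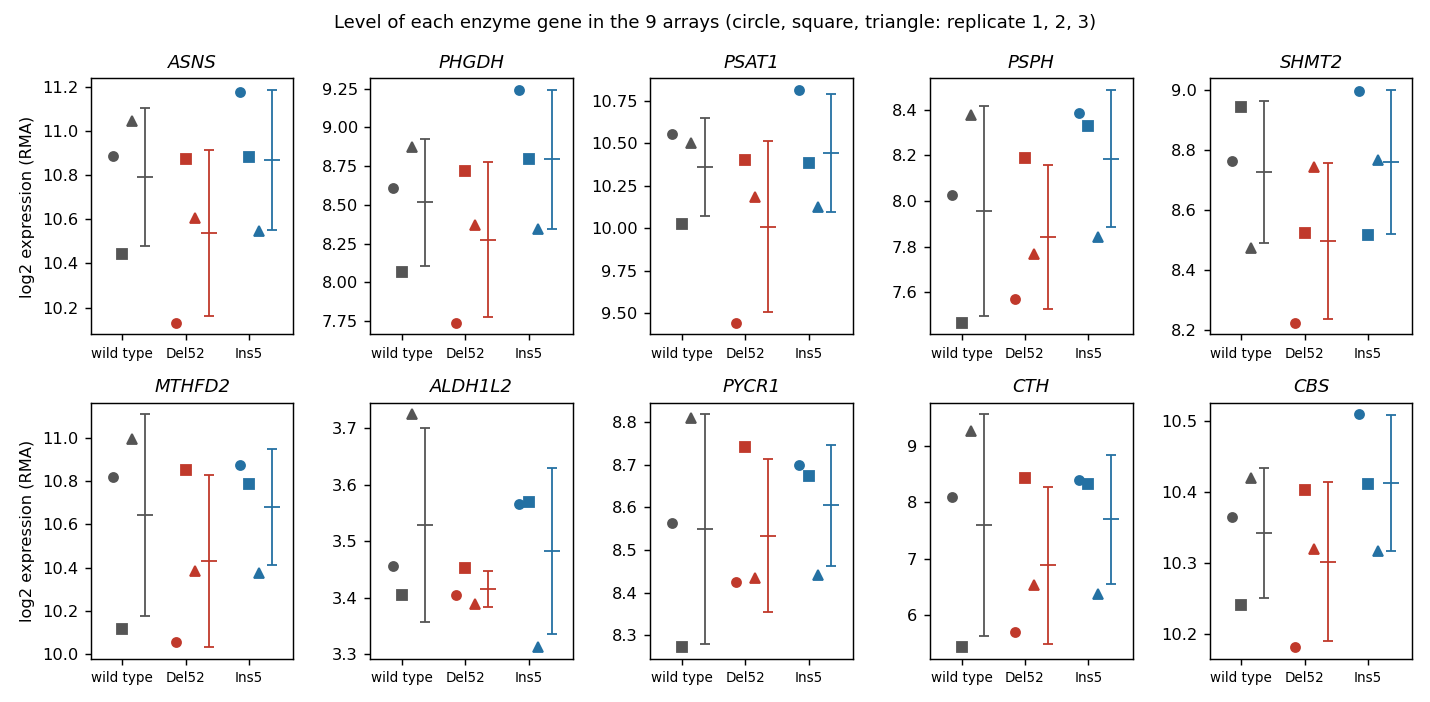
Log2 expression (RMA, y axis) of the 10 enzyme genes in wild-type, Del52 and Ins5 arrays (x axis). Points are arrays, with the marker shape giving the replicate number, and the bar beside them is the mean ± SD (n = 3). In each gene the groups overlap, and CTH runs from 5.43 to 9.27.

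The serine pathway begins with PHGDH, the dehydrogenase of its committed step. PHGDH read 8.61, 8.07 and 8.87 in wild type, 7.74, 8.72 and 8.37 in Del52, and 9.24, 8.80 and 8.34 in Ins5, a span of 2.83-fold from Del52 replicate 1 to Ins5 replicate 1. PSAT1, the aminotransferase that follows, read 10.56, 10.03 and 10.50 in wild type, 9.44, 10.40 and 10.18 in Del52, and 10.81, 10.38 and 10.13 in Ins5. Its lowest and highest arrays were those of PHGDH. PSPH, the phosphatase that releases serine, read 8.03, 7.47 and 8.38 in wild type, 7.57, 8.19 and 7.77 in Del52, and 8.39, 8.33 and 7.84 in Ins5. Here wild-type replicate 2 was the lowest array, just below Del52 replicate 1, and the groups again overlapped. The other 7 probe sets of PSAT1 correlated with the one shown at 0.977 or more, while those of PSPH did so at 0.988 and 0.765, and PHGDH had 1 probe set.

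Serine is then split by SHMT2, the mitochondrial hydroxymethyltransferase that yields glycine and a folate-bound carbon unit. SHMT2 read 8.76, 8.94 and 8.47 in wild type, 8.22, 8.52 and 8.74 in Del52, and 8.998, 8.52 and 8.77 in Ins5. Wild-type replicate 2, among the lowest arrays for the serine genes, was the second highest here, and wild-type replicate 3 was the second lowest. The other 3 probe sets of SHMT2 also had Del52 replicate 1 and then wild-type replicate 3 lowest. They had Ins5 replicate 1 and then wild-type replicate 2 highest (correlations from 0.979 to 0.980), while the order between differed in part.

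MTHFD2, the mitochondrial dehydrogenase and cyclohydrolase that oxidises this carbon unit, read 10.82, 10.12 and 10.99 in wild type, 10.06, 10.85 and 10.38 in Del52, and 10.88, 10.79 and 10.38 in Ins5. It resembled ASNS and not SHMT2, with wild-type replicate 2 and Del52 replicate 1 lowest. ALDH1L2, the mitochondrial formyltetrahydrofolate dehydrogenase, was dim, at 3.46, 3.40 and 3.72 in wild type, 3.40, 3.45 and 3.39 in Del52, and 3.57, 3.57 and 3.31 in Ins5. These values lie inside the span of the antigenomic controls (means from 1.56 to 6.35), and its other probe set correlated with the one shown at only 0.353.

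PYCR1, which reduces pyrroline-5-carboxylate to proline, read 8.56, 8.27 and 8.81 in wild type, 8.42, 8.74 and 8.44 in Del52, and 8.70, 8.67 and 8.44 in Ins5. Wild type alone spanned its whole range, 0.54 on the log2 scale. Of its 5 other probe sets, 1 was dim (mean 3.02) and ran against it (correlation -0.574).

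CBS, the first enzyme of transsulfuration, varied least in level among the bright genes: 10.37, 10.24 and 10.42 in wild type, 10.18, 10.40 and 10.32 in Del52, and 10.51, 10.41 and 10.32 in Ins5. RefSeq lists a second locus with the synonym CBS, and the probe sets may not tell these apart. CTH, the next enzyme, which releases cysteine, varied most: 8.09, 5.43 and 9.27 in wild type, 5.70, 8.42 and 6.53 in Del52, and 8.40, 8.32 and 6.38 in Ins5. The wild-type arrays alone differed by 14.3-fold, and the SD of CTH over the 9 arrays (1.39) ranked 4 among the 18239 genes, whose median SD was 0.10. Its 4 low arrays lay between 5.43 and 6.53 and its 5 high arrays between 8.09 and 9.27, with no value in between. CTH had 1 probe set, and its lowest readings were above the second-brightest antigenomic control (4.18) but not the brightest (6.35).

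The same 4 arrays were the lowest for 9 of the 10 genes: Del52 replicates 1 and 3, Ins5 replicate 3 and wild-type replicate 2. Only SHMT2 departed from this. The gap on the log2 scale between these 4 arrays and the rest was only 0.05 in ALDH1L2 and in CBS. ALDH1L2 was dim, and its other probe set was highest in Del52 replicate 3. Over all genes, 8.28% had these 4 arrays lowest and 9.05% had them highest. The 4 arrays included 2 of the 3 Del52 arrays and 1 of 3 in each of the other groups. Deviations of the 10 genes from their own means averaged -0.57 in Del52 replicate 1, -0.41 in wild-type replicate 2, -0.21 in Ins5 replicate 3 and -0.18 in Del52 replicate 3. In the remaining arrays they averaged 0.16 to 0.41. CTH, with the largest deviations, weighs most in these averages. The medians of the 10 deviations were -0.48, -0.29, -0.16 and -0.13 in the same order of low arrays, and 0.09 to 0.36 in the others. The split between high and low arrays thus ran through every group.

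**Figure D2:**
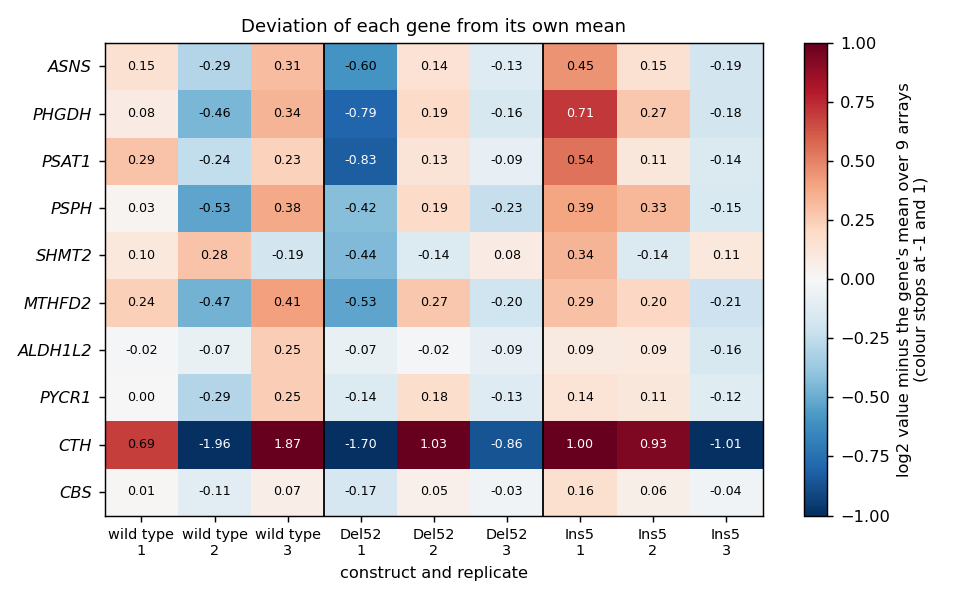
Deviation of each gene (rows) from its own mean over 9 arrays, on the log2 scale, in each array (columns, by construct and replicate). Blue is below and red above the gene's mean, and colour stops at -1 and 1 although CTH runs from -1.96 to 1.87. The 4 blue columns belong to all 3 constructs, and SHMT2 lies on the opposite side of its mean from ASNS in 6 of 9 arrays (replicates 2 and 3 of each construct).

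Some properties of the arrays moved with this split, in part with overlap. The 4 low arrays had scores from 0.11 to 0.57 on the first principal component and the other 5 had scores from -0.57 to -0.05. The difference between the 3-prime and 5-prime actin control probe sets, a measure of RNA and labelling quality, was 1.08 to 1.24 in the low arrays and 1.22 to 1.39 in the others. The same difference for GAPDH was 0.03 to 0.10 in the low arrays and 0.09 to 0.17 in the others. For both controls the ranges overlapped. Among the 9 erythroid markers, 4 had the same 4 arrays highest, against 9.05% of all genes. Over the 9 arrays, r with ASNS was -0.89 for KLF1, -0.87 for GATA1, -0.83 for HBZ and -0.77 for TFRC, -0.61 for SLC4A1, and between 0.17 and 0.38 for HBG1, HBE1, ALAS2 and EPOR. The part of these measures in the levels was not tested. The first component held 91.0% of the variance of PYCR1, 82.5% of CTH, 72.6% of PSPH and 70.2% of MTHFD2, but 43.9% of ASNS, 40.9% of CBS, 40.6% of PHGDH and 23.7% of PSAT1. SHMT2 (22.7%) lay on it with the opposite sign. In bulk RNA, a change in a share of the cells and a change in every cell cannot be told apart.

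How closely the genes moved together was measured by their correlation with ASNS over the 9 arrays, with two-sided exact permutation tests adjusted over 9 relations. PHGDH (Pearson r = 0.985, adjusted p = 9.9e-05, exact permutation; Spearman rho = 0.950, adjusted p = 0.0011), CBS (r = 0.976, adjusted p = 9.9e-05; rho = 0.950, adjusted p = 0.0011) and PSAT1 (r = 0.972, adjusted p = 0.00012; rho = 0.967, adjusted p = 0.0011) were the nearest. The raw p-values of Pearson's r were 1.4e-05, 2.2e-05 and 3.9e-05 in the same exact test. MTHFD2 (r = 0.948, p = 0.00015, adjusted p = 0.00034; rho = 0.933, adjusted p = 0.0017) and PSPH (r = 0.915, p = 0.00054, adjusted p = 0.00097; rho = 0.917, adjusted p = 0.0024) followed in the exact test.

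PYCR1 (r = 0.819, p = 0.0073, adjusted p = 0.0093; rho = 0.817, adjusted p = 0.014) and ALDH1L2 (r = 0.705, p = 0.032, adjusted p = 0.036; rho = 0.783, adjusted p = 0.019) were further away in the exact test, and SHMT2 did not pass (r = 0.336, p = 0.377, adjusted p = 0.377; rho = 0.167, adjusted p = 0.678). An r with ASNS at least as high was found in 3.20% of other genes for PYCR1, 7.67% for ALDH1L2 and 27.5% for SHMT2. ALDH1L2 was also dim. No coefficient is given for CTH, whose arrays fall into separate sets of 4 and 5. Of the 8 genes with a coefficient, 5 reached an r of at least 0.9 with ASNS, against 1.18% of all genes.

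Without Del52 replicate 1 and wild-type replicate 2, the arrays farthest from the ASNS median, the coefficients were 0.962 for PHGDH, 0.943 for CBS, 0.947 for PSAT1, 0.908 for MTHFD2, 0.907 for PSPH, 0.836 for PYCR1, 0.817 for ALDH1L2 and 0.067 for SHMT2. Within groups, with the group means subtracted, they were 0.999 for PHGDH and CBS, 0.966 for PSAT1, 0.950 for MTHFD2, 0.924 for PSPH, 0.860 for PYCR1, 0.686 for ALDH1L2 and 0.138 for SHMT2. The association was therefore also present inside the groups.

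**Figure D3:**
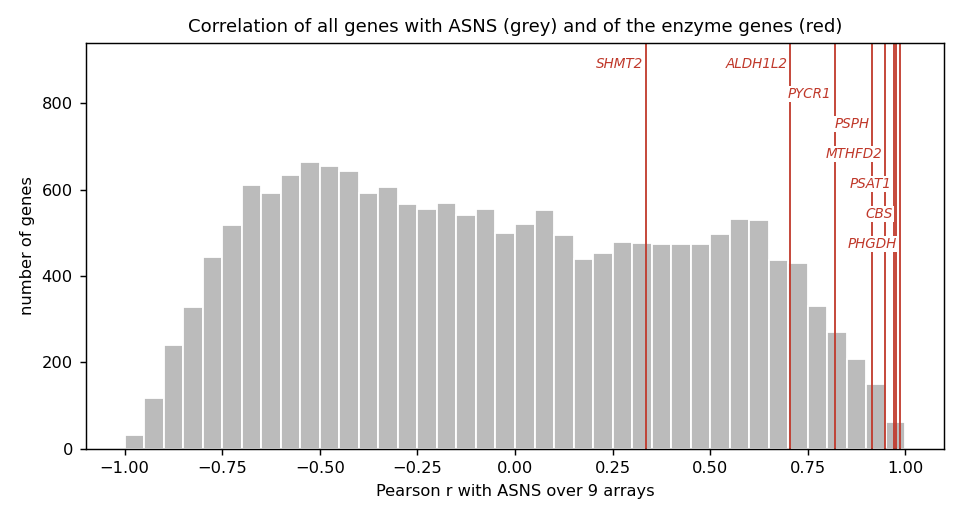
Pearson correlation with ASNS over the 9 arrays (x axis) for all other genes (grey, number of genes on the y axis) and for 8 of the enzyme genes (red lines). SHMT2, at 0.336, stands apart from the rest, and 5 genes lie at 0.9 or above.

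SHMT2 lay close to ASNS once the main axis was taken out. With the first principal component removed from every gene, its r with ASNS was 0.990, against 0.336 before, and 0.071% of genes reached as high a value. PSAT1 (0.993), PHGDH (0.975), MTHFD2 (0.960) and CBS (0.960) remained above 0.9, PSPH had 0.895, PYCR1 0.833 and ALDH1L2 0.383. In that setting 2.62% of all genes had an r of at least 0.9. With Del52 replicate 1 left out as well, which dominates what remains, SHMT2 had 0.970, and without the removal -0.224. These values describe 9 and 8 arrays and carry no test.

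**Figure D4:**
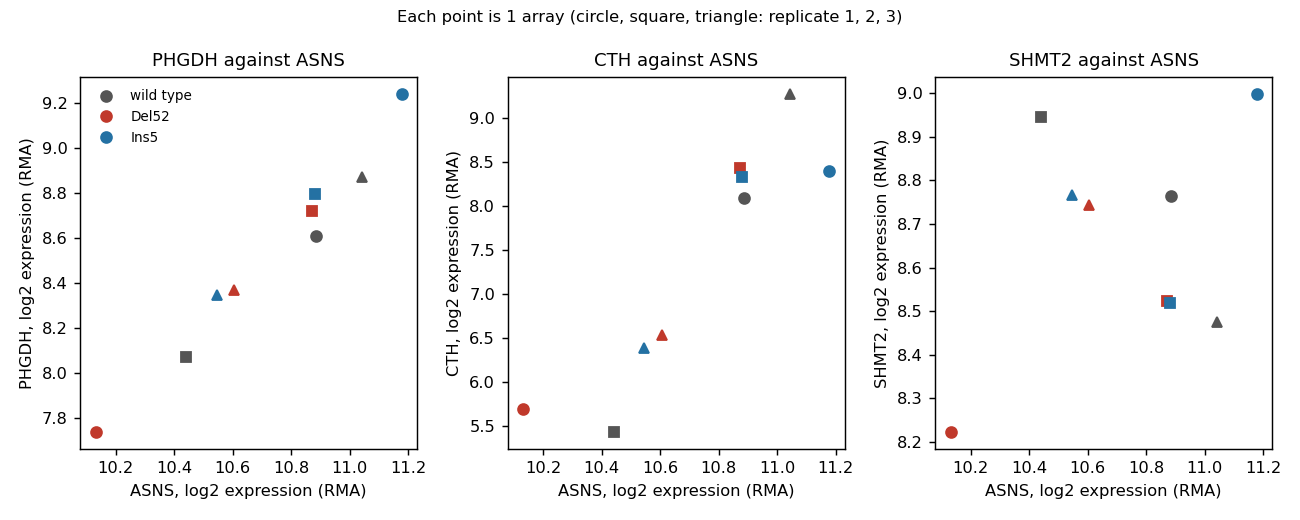
PHGDH, CTH and SHMT2 (y axes) against ASNS (x axes), log2 expression, 1 point for each array, coloured by construct. PHGDH follows ASNS along a line, CTH falls into separate low and high sets of 4 and 5 arrays, and SHMT2 places wild-type replicate 2 high and wild-type replicate 3 low.

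Among the 36 pairs of genes that leave out CTH, 24 had an exact permutation adjusted p under 0.05 (over 45 pairs), and each of these 24 was a pair without SHMT2. The share of all gene pairs that would pass was not computed, so the count is not a trait of these genes alone. Over all genes, r with ASNS had a 5% quantile of -0.776 and a 95% quantile of 0.765. The closest pair was PHGDH with CBS (r = 0.998, exact permutation adjusted p = 0.00012; both were lowest in Del52 replicate 1 and highest in Ins5 replicate 1). SHMT2 had 0 of 8 such pairs, with r from -0.242 (PYCR1) to 0.524 (PSAT1).

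The genes most like the 10 as a group were found by their r with the mean of the 10 centred profiles over 9 arrays. The profiles were not scaled, so CTH weighs most in this mean. TNFAIP3, an inhibitor of NF-kappaB signalling, was the nearest (0.999), and ran from 4.95 in Del52 replicate 1 to 6.99 in wild-type replicate 3. SLC1A5, the neutral amino acid and glutamine transporter (0.995), the small GTPase gene RAP2C (0.995), GTF2E1, a subunit of the general transcription factor TFIIE (0.993), and the non-coding RNA gene SNHG32 (0.992) came next. They share the 9 arrays and their main axis, and the likeness is a description.

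Del52 against wild type addresses the deletion mutant, and was taken from a limma fit over all genes. All 10 genes had lower means in Del52, with a median log2 fold change of -0.22, while 45.4% of all genes were lower and the median of all genes was 0.01. This holds for the chosen probe sets. Other probe sets were higher in Del52 for CBS (0.06 and 0.02), ALDH1L2 (0.04) and PYCR1 (0.15), and the rest were lower. With means over probe sets 9 of 10 genes were lower, and PYCR1 lay on the other side of 0. With limma and Benjamini-Hochberg adjustment, 0 of 10 passed at 0.05 (adjusted p from 0.889 to 1.00), and so did 0% of all genes. At an unadjusted p under 0.05 there were 0 of 10, against 7.05% of all genes, and in 0 of 10 did the groups not overlap, against 10.6% of all genes.

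Levels of PSAT1 averaged 10.01 ± 0.50 for Del52 against 10.36 ± 0.29 for wild type (SD, n = 3 each), a log2 difference of -0.35 ± 0.28 (SE; 95% interval from -1.004 to 0.302; limma adjusted p = 0.895). ASNS averaged 10.54 ± 0.38 and 10.79 ± 0.31, and its difference was -0.25 ± 0.24 (interval from -0.82 to 0.31; limma adjusted p = 0.922). For SHMT2, with the smallest p of the 10, the levels were 8.50 ± 0.26 and 8.73 ± 0.24 (difference -0.23 ± 0.18; limma adjusted p = 0.889). CTH had the largest difference and the widest interval (-0.71, from -3.27 to 1.85). The other differences were -0.24 for PHGDH, -0.21 for MTHFD2, -0.11 for PSPH and ALDH1L2, -0.04 for CBS and -0.01 for PYCR1. Each was smaller than 2 of its own standard errors.

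The common direction rested on single arrays. Without Del52 replicate 1, which also stood apart on the second component, 6 of 10 were lower and the median was -0.04, with PHGDH, PSPH, PYCR1 and CBS on the other side of 0. Without wild-type replicate 3, 7 of 10 were lower and the median was -0.03. Leaving out wild-type replicate 2 gave a median of -0.39, and leaving out Del52 replicate 2 gave -0.35. The erythroid markers differed in the other direction, with 9 of 9 higher in Del52, a median of 0.11 and 0 passed in limma (smallest adjusted p = 0.789; 0 of 9 at an unadjusted p under 0.05). Their mean deviation lay between 0.00 and 0.18 in Del52, -0.04 and 0.03 in Ins5, and -0.14 and -0.01 in wild type. Its part in the result was not tested.

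**Figure D5:**
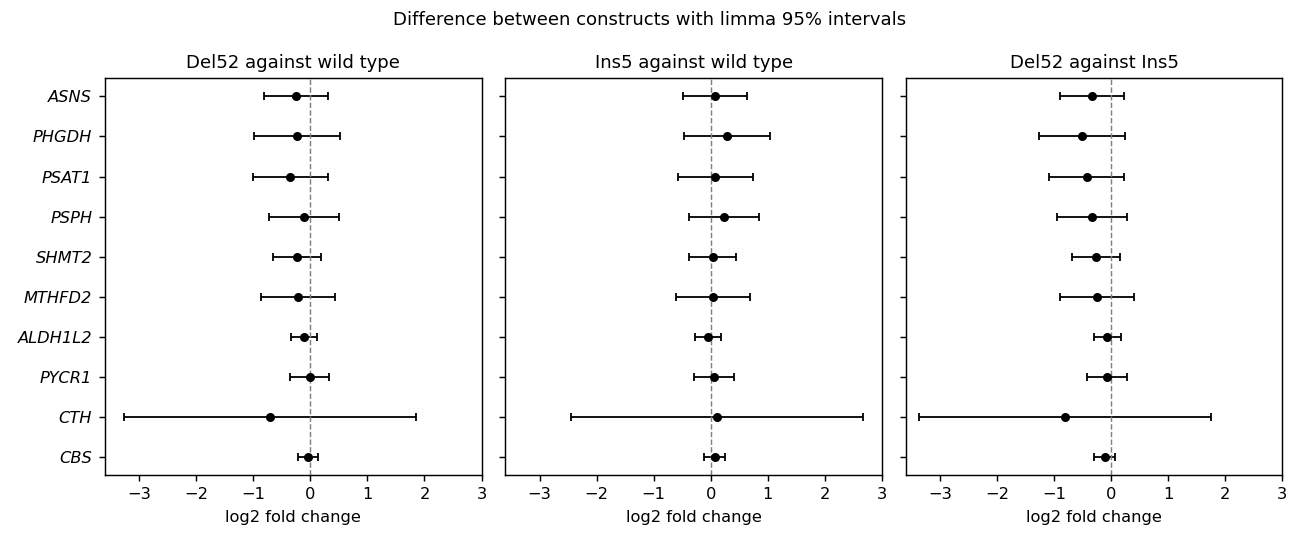
Log2 fold change (x axis) of the 10 genes (y axis) in the 3 comparisons, with limma 95% intervals. Each interval includes 0, and that of CTH is the widest in every panel.

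The insertion mutant was compared with wild type in the same fit. Here 9 of 10 genes had higher means in Ins5, with a median of 0.07, against 0.02 for all genes, of which 40.4% were lower. Other probe sets had another sign than the chosen one for PSPH (-0.14), PYCR1 (-0.08), MTHFD2 (-0.0055) and ALDH1L2 (0.01), and the rest had the same sign. None of the 10 passed (limma adjusted p from 0.945 to 1.00; 0% of all genes), 0 of 10 had an unadjusted p under 0.05 (7.41% of all genes), and 0 of 10 had groups that did not overlap (11.5% of all genes). PHGDH was at 8.79 ± 0.45 in Ins5 and 8.52 ± 0.41 in wild type (difference 0.28 ± 0.33 SE; limma adjusted p = 0.954), PSPH differed by 0.23 ± 0.26 (limma adjusted p = 0.953), and CTH by 0.10 ± 1.10. CBS, with the smallest p, differed by 0.07 ± 0.08 (limma adjusted p = 0.945). The remaining values were 0.08 for ASNS and PSAT1, 0.06 for PYCR1, 0.04 for MTHFD2, 0.03 for SHMT2 and -0.05 for ALDH1L2. The median turned to -0.08 without wild-type replicate 2 (7 of 10 lower) and to -0.07 without Ins5 replicate 1 (6 of 10 lower). It was 0.21 without Ins5 replicate 3, 0.20 without wild-type replicate 3 and 0.13 without wild-type replicate 1.

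The mutants were then compared directly. All 10 genes had lower means in Del52 than in Ins5, with a median of -0.30, against -0.01 for all genes, of which 54.6% were lower. None passed in limma (adjusted p from 0.968 to 1.00; 0% of all genes), 0 of 10 had an unadjusted p under 0.05 (5.77% of all genes), and 0 of 10 had groups that did not overlap (10.1% of all genes). PHGDH had the smallest p (8.28 ± 0.50 in Del52, 8.79 ± 0.45 in Ins5; difference -0.52 ± 0.33 SE, interval from -1.27 to 0.24; limma adjusted p = 0.968). PSAT1 differed by -0.43 ± 0.28, PSPH by -0.34 ± 0.26, ASNS by -0.33 ± 0.24, SHMT2 by -0.26 ± 0.18 and MTHFD2 by -0.25 ± 0.28. CTH was at -0.82 ± 1.10, CBS at -0.11 ± 0.08, and PYCR1 and ALDH1L2 both at -0.07. All 10 differences stayed negative when any 1 array was left out, with medians from -0.48 (without Del52 replicate 2) through -0.45 (without Ins5 replicate 3) to -0.16 (without Ins5 replicate 1) and -0.13 (without Del52 replicate 1). Most of the 10 genes moved together over the arrays, so they are not 10 separate observations. The 4 shared low arrays included 2 of the 3 Del52 arrays and 1 of the 3 Ins5 arrays, and the part of this in the direction was not tested. Other probe sets were higher in Del52 for ALDH1L2 (0.03), PYCR1 (0.05 and 0.01) and PSPH (0.0008), and the rest were lower. The comparisons share arrays, so their values are not independent of each other.

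A test of all 3 constructs at once gave the same picture, with 0 of 10 past the limma F test (adjusted p from 0.903 to 1.00; 0% of all genes). Differences between groups held 3.29% of the variance of PYCR1, 7.69% of CTH, 10.8% of MTHFD2, 15.6% of ALDH1L2 and 18.6% of PSPH, and 21.0% to 25.7% of the other 5 genes, against a median of 21.3% over all genes. The 10 genes varied mostly between arrays of the same construct.

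Close relatives of the mitochondrial folate and proline enzymes were read beside them. SHMT1, the cytosolic counterpart of SHMT2, averaged 6.09 with Del52, 6.10 with Ins5 and 5.99 with the wild-type form, and differed by 0.10 ± 0.13 (SE) between Del52 and wild type (limma adjusted p = 0.957). MTHFD2L, the relative of MTHFD2, was at 2.58, 2.56 and 2.54, and ALDH1L1, the cytosolic relative of ALDH1L2, at 3.59, 3.50 and 3.55, both dim. PYCR3, a relative of PYCR1, was at 3.54, 3.60 and 3.56. None of the 4 passed in any comparison, and none had the same 4 lowest arrays as the 9 genes.

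Neighbouring enzymes of the same pathways were set against the 8.28% of all genes that had the same 4 lowest arrays. Of 16 measured genes for folate and glycine metabolism, 3 had the same 4 lowest arrays (MTHFD1L, GCAT and SRR). Of 11 for asparagine, aspartate and glutamate there was 1, GOT1, the cytosolic aspartate aminotransferase, and of 6 for proline and 17 for methionine, cysteine and glutathione there were 0. In the last of these lists 5 of 17 had those 4 arrays highest, against 9.05% of all genes. MTHFD1L, which makes formate in mitochondria, and GOT1 were also the members nearest to ASNS (r = 0.915 and 0.946 over 9 arrays). In Del52 against wild type 5 of 16, 6 of 11, 3 of 6 and 8 of 17 were lower (45.4% of all genes), with medians of 0.02, -0.02, -0.01 and 0.01, and 0 passed in any of the 4 lists in limma (at an unadjusted p under 0.05, 1, 1, 0 and 0, against 7.05% of all genes).

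Single genes with the smallest p in those lists were dim or small in effect. The asparaginase gene ASPG was at 3.76 in Del52, 3.96 in wild type and 3.98 in Ins5 (-0.20 ± 0.06 SE against wild type, limma adjusted p = 0.603, and -0.22 against Ins5, adjusted p = 0.841). MTHFD1, the cytosolic folate enzyme with 3 activities, was higher in Del52 than in wild type by 0.12 ± 0.05 (limma adjusted p = 0.657), and than in Ins5 by 0.13 (adjusted p = 0.841). PRODH, which breaks down proline, differed by 0.09 and 0.10 in the same comparisons, and ETHE1, which oxidises sulfide products, by -0.17 and -0.19. In Ins5 against wild type the smallest p-values belonged to MTHFD1L (0.16), GOT2 (0.13), ALDH18A1 (-0.12) and BHMT (0.08), with limma adjusted p from 0.737 to 0.910.

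The array pattern was more frequent in 3 lists of ATF4-related genes. The same 4 arrays were lowest for 9 of 20 ATF4 factors and feedback genes, among them the glutathione-degrading enzyme CHAC1, the mTORC1 inhibitors SESN2 and DDIT4, and the hormone gene STC2. So they were for 8 of 12 amino acid transporters, including the cystine transporter pair SLC7A11 and SLC3A2, and for 7 of 12 aminoacyl-tRNA synthetases, including GARS1 and WARS1, against 8.28% of all genes. An r of at least 0.9 with ASNS was reached by 6 of 20, 3 of 12 and 4 of 12 members, against 1.18% of all genes. The highest belonged to STC2 (0.982), SLC7A1 (0.988) and GARS1 (0.989). Among the transporters r was negative for SLC36A4 (-0.625) and SLC7A3 (-0.018). Among the synthetases it was negative for IARS1 (-0.371) and low for EPRS1 (0.301). Of the factors, DDIT3 (0.136) and EIF2AK3 (0.217) also had low values. ATF4 mRNA itself had an r of 0.528, or 0.925 with the first component removed. EIF2AK1, the haem-regulated eIF2alpha kinase, ran the other way (-0.937). In the same list r was also negative for EIF2AK2 (-0.644), EIF2AK4 (-0.477), ATF5 (-0.315) and FGF21 (-0.249). Of these 20 genes, 2 had the same 4 arrays highest, against 9.05% of all genes.

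Between groups most genes of these lists had lower means in Del52. In Del52 against wild type 16 of 20 factors (median -0.35), 11 of 12 transporters (-0.16) and 12 of 12 synthetases (-0.11) were lower (45.4% of all genes), and 0 passed in limma (2, 0 and 0 at an unadjusted p under 0.05, against 7.05% of all genes). Smallest p-values belonged to EIF2AK3, the kinase PERK (-0.35 ± 0.07 SE, adjusted p = 0.603), SLC7A11 (-1.15 ± 0.51, adjusted p = 0.722) and TARS1 (-0.13, adjusted p = 0.842). In Ins5 against wild type 13 of 20 (median -0.03), 4 of 12 (0.07) and 2 of 12 (0.05) were lower, with EIF2AK3 (-0.19), SLC7A3 (0.09) and EPRS1 (-0.16) first in p (limma adjusted p = 0.640, 0.841 and 0.651). The lists held 1, 0 and 1 genes with an unadjusted p under 0.05, against 7.41% of all genes. In Del52 against Ins5 16 of 20 (-0.38), 11 of 12 (-0.27) and 10 of 12 (-0.22) were lower, with FGF21 (0.18, opposite to its list), SLC43A1 (-0.25) and AARS1 (-0.32) first in p (limma adjusted p = 0.841, 0.876 and 0.860). There were 3, 0 and 1 at an unadjusted p under 0.05, against 5.77% of all genes. Array by array, the mean deviation of Del52 replicate 1 was -0.54, -0.49 and -0.31 in the 3 lists, beside -0.57 in the 10 enzymes.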

How the data were processed

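Expression was measured in 9 samples of K562 (3 for each of WT, Del52 and Ins5 CALR), from the RNA of 100000 cells each. The authors deposited 1 log2 value for every probe set and array. Per the submitters' processing notes they used RMA and Partek. Their versions, the settings and any genome build: not given in the sources used here. Log base 2 was inferred from the values, whose maximum of 12.2 would exceed a scanner's range as a natural logarithm. RMA normalizes between arrays, which can hide a shift of all genes. Arrays give no read depth, so their number limits the precision.

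Of 49386 probe sets, 93 were controls and left out; 45253 had 1 gene symbol, 1327 several and 2713 none. Per gene the 1-symbol probe set with the highest mean was used, leaving 18239 genes. The 10 enzymes had 40 probe sets, and 27 of the 30 not used for the values correlated with the chosen one above 0.9. Chosen probe sets of ASNS, PSPH and PYCR1 carry the suffix that Affymetrix gives to probes which may bind other transcripts, and those of PSAT1 and CBS the suffix for sets that match several transcripts.

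All 9 arrays entered 1 limma 3.58.1 fit (R 4.3.3) with a mean per group and 6 residual degrees of freedom, with two-sided p-values and Benjamini-Hochberg adjustment over all genes. Correlations over arrays used exact permutation tests over 362880 pairings (Python 3.11.15). The members, lists, tests and alternatives were chosen with earlier results of these data known; the 45 pairs and the shared low arrays were added after the values were seen. The naming rule took all 10 enzymes and their relatives, for each further list up to 4 passing genes per comparison or otherwise the gene with the smallest p, and the 5 genes most like the mean profile. List genes named for their place in the array pattern or their correlation with ASNS (among them CHAC1, STC2, GARS1, SLC7A1 and EIF2AK1), and ATF4, were chosen after their values were seen. Tested on simulated data for Del52 against wild type over 18239 genes, the fit recovered 34 of 67 genes with a log2 change of 0.5, 59 of 67 with a change of 1, and 63 of 66 with a change of 2. It also called 9 unchanged genes. The simulated noise was independent between genes, and the changed genes were picked at random from all genes. The real arrays share a main axis, and most of the 10 enzymes varied more than the median gene. These rates therefore do not give the recovery to expect for the 10 enzymes.

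Alternatives were a replicate block, quantile normalization, median centring, a level filter, means of probe sets, each probe set on its own, array weights, variances with an intensity trend or without moderation, fits on 6 arrays, the first component as covariate, another threshold and arrays left out.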

Additional observations from a re-analysis of the deposited data

How the results depend on the processing

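Of the 10 enzymes, 0 passed in any comparison or in the F test under the alternatives tried, except that PSAT1 passed in Del52 against wild type with array weights (-0.70, adjusted p = 0.0459; 1 gene of the 10). Those weights stopped before convergence and gave wild-type replicate 1 a weight of 67.0, against 0.237 to 1.82 for the other 8 arrays, so the wild-type mean then rested mainly on that array. Counts over all genes, 0 in the main fit, were 3190 for Del52 against wild type, 4017 for Ins5 against wild type and 5345 in the F test with array weights. With unmoderated variances they were 2, 9, 1 for Del52 against Ins5 and 6 in the F test, and with the first principal component as covariate 4, 7 and 2 in the F test. With that covariate the median of the 10 enzymes was -0.19 for Del52 against wild type, 0.08 for Ins5 against wild type and -0.29 between the mutants (smallest adjusted p = 0.225). With single arrays left out the medians ran from -0.39 to -0.03, from -0.08 to 0.21 and from -0.48 to -0.13, and the smallest adjusted p of any enzyme was 0.557. A replicate block changed no call (0 of 10 in each comparison, smallest adjusted p = 1). Same-numbered arrays, whose deviations from the group means correlated between -0.923 and 0.644 over 9 pairs, share only a number. Quantile normalization put PYCR1 and CBS on the other side of 0 in Del52 against wild type, and median centring SHMT2 in Ins5 against wild type. Over all alternatives 38 of 657 values of the 10 enzymes had another sign than the value reported, 0 of them moved by as much as the within-group SD. ALDH1L2 was not tested under the level filter. With 3 arrays per group, the 95% intervals of CTH reach from -3.27 to 1.85 in Del52 against wild type.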
